A study of Homo sapiens with 15 samples.

Results

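The Mediator complex and the initiation machinery of RNA polymerase II were followed as 81 genes in the RPMI-8226 cell line, established from a human multiple myeloma, over 24 h of exposure to KB528. The genes were taken by a rule on their names, which was set with earlier results of these data known. The rule took every row of the deposited table called MED, POLR2A to POLR2M, TAF or GTF2A to GTF2H followed by a number, together with CCNC and CDK8. They were 81 of 26364 gene rows, made up of 32 Mediator genes, 13 RNA polymerase II genes, 24 TAF genes and 12 genes for the general factors TFIIA, TFIIB, TFIIE, TFIIF and TFIIH. The series compared wild-type cells given 100 nM KB528 for 1, 3, 6 or 24 h with cells given DMSO and labelled as 0 h, with 3 libraries in each of the 5 groups and 15 in all. Per the labels, KB528 inhibits the acetyltransferase activity of p300, a coactivator that is recruited to enhancers, and the libraries were strand-specific and made from mRNA. The DMSO cells were taken at a single time, so effects of handling or of time in culture cannot be told apart from those of KB528. No label states whether the replicates of a group were grown separately, so the tests set differences against a spread that may be technical.

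Expression was given as TPM, a share of all transcripts in a library after division by transcript length, so read counts behind single values were not known. Depth relative to the first DMSO library, read from steps in the low values, ran from 0.759 to 1.12, and 11616 to 12356 genes reached 1 TPM per library. Spike-in RNA took 9.35% to 16.6% of the TPM of a library. The labelled cell type was checked against 9 plasma cell and myeloma markers, all of which reached 1 TPM in at least 1 library. SLAMF7 lay near that level, with means of 1.66 TPM in DMSO and 0.929 TPM at 24 h. The summed level of the 9 was 7595 to 8434 TPM in the DMSO libraries and 5080 to 5252 TPM at 24 h. Most of it came from JCHAIN and MZB1, with means of 4288 and 2618 TPM in DMSO and 3266 and 1172 TPM at 24 h. Of 3 T cell markers, CD3D and CD2 were at 0 in every library, while CD3E averaged 0.255 TPM in DMSO and 0.761 TPM at 24 h and did not exceed 0.952 TPM. The 3 fibroblast markers stayed below 1 TPM. The 3 monocyte markers summed to 49.5 to 57.0 TPM in DMSO and 36.9 to 38.8 TPM at 24 h, nearly all of it CD68, and the 3 erythroid markers to 6.87 to 10.2 TPM over all libraries, nearly all HBA1. Of 4 epithelial markers, EPCAM and KRT18 were well expressed, and the summed list ran from 264 to 267 TPM in DMSO and from 214 to 222 TPM at 24 h, with CDH1 below 1 TPM throughout. In bulk RNA, fewer cells of a kind and less RNA per cell cannot be told apart, and the part of these marker shifts in the results was not tested.

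One control library stood apart for the genes described here. The second DMSO library held the lowest of the 3 DMSO values for 54 of the 78 tested members and for 36 of the 39 members with longer transcripts, against 18 of the 39 with shorter ones. Counts of changed members are therefore also given without it.

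RNA polymerase II transcribes all protein-coding genes and is placed at promoters by general transcription factors. TFIID, built from TBP and TAF proteins, recognizes the promoter, TFIIB and TFIIA stabilize it there, and TFIIE, TFIIF and TFIIH load, open and release the polymerase. Mediator joins this assembly to activators bound at enhancers through its head, middle and tail, while a detachable kinase module of CDK8, cyclin C, MED12 and MED13 binds reversibly and restrains it. In plasma cell tumours these complexes serve the enhancers that keep lineage genes such as IRF4 active.

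Promoters are shown for 6 members chosen among those described below. They include POLR2A, which had the largest rise, and TAF4B, which had the largest fall at 6 h. Not every large rise is among them, since MED13 is left out. Sequences come from RefSeq on GRCh38.p14, where 64 of the 81 members had an entry, and cover the 150 bases before the annotated start in the direction of transcription. Capitals mark matches, on either strand, to 7 motifs. The GC box was searched as GGGCGG and the box named for its letters as CCAAT. An ETS core was taken as CCGGAAG. The TATA box was searched as TATAAA, and the E-box as CACGTG. A cyclic AMP response element (CRE) was taken as TGACGTCA, and the NRF1 element is given by name. The matches shown do not overlap each other.
POLR2A, chr17:7484216-7484365, plus strand, with 2 GC boxes: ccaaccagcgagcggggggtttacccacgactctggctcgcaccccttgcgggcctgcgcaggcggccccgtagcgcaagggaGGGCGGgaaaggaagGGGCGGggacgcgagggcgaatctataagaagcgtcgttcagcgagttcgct
TAF3, chr10:7818355-7818504, plus strand, with an ETS core and a GC box: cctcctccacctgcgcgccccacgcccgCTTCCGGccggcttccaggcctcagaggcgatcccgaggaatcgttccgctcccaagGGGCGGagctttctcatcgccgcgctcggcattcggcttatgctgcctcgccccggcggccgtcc
GTF2B, chr1:88891568-88891717, minus strand, with an E-box and a TATA box: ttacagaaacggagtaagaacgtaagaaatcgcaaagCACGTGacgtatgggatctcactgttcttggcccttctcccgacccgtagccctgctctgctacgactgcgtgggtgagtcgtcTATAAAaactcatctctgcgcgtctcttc
TAF9B, chrX:78139651-78139800, minus strand, with a GC box: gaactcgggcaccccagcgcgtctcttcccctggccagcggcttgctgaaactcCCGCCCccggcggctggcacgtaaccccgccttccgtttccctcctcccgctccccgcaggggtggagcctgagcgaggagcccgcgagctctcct
TAF4B, chr18:26226295-26226444, plus strand, with a CRE, a CCAAT box, a GC box and an NRF1 element: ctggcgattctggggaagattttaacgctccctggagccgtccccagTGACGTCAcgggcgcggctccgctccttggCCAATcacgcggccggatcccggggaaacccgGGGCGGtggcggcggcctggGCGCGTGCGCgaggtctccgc
MED12, chrX:71118446-71118595, plus strand, with a GC box: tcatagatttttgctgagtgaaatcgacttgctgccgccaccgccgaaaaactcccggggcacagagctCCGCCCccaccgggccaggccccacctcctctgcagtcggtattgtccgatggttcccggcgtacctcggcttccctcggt

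Across the 78 promoter windows of the members, an ETS core lay in 26.9%, against 6.85% of all 35116 RefSeq windows of the same length. An NRF1 element lay in 21.8% of member windows and 4.29% of all windows. GC boxes lay in 48.7% and 36.8%, CCAAT boxes in 24.4% and 23.5%, E-boxes in 10.3% and 4.57%, and CREs in 2.56% and 1.40%. TATAAA was found in 1.28% of member windows, that of GTF2B alone, and in 6.71% of all windows. These matches describe letters in a window and no binding was measured.

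In DMSO the members spanned a wide range of levels, on the per-length TPM scale. The small polymerase subunit POLR2L, shared by all 3 nuclear polymerases, was highest at 519.9 ± 23 TPM (SD, n = 3). It was followed by POLR2G of the polymerase stalk at 253 ± 13 TPM. The next were TAF10 at 197 ± 6.06, POLR2E at 196 ± 6.13 and POLR2J at 176 ± 11.5 TPM. TAF10 and POLR2E differed by less than their SDs, and POLR2J lay below both by more than its SD. Mediator genes were lower, from 7.28 ± 0.991 TPM for MED23 of the tail to 80.3 ± 6.68 TPM for MED16. Among the 78 members with a mean of at least 1 TPM, POLR2M, TAF1B and GTF2H5 were lowest at 2.33 ± 0.379, 3.97 ± 0.124 and 4.31 ± 0.484 TPM. The other 3 members, MED12L, TAF1L and TAF7L, did not exceed 0.329 TPM in any library and were not tested. Some levels are uncertain because of shared sequence or loci: GTF2H2 and POLR2J have near-identical copies, TAF9 shares a locus with AK6, and POLR2M can be read through from its neighbour.

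The members moved in both directions within hours and were mostly raised by 6 h. Changes are differences of log2(TPM + 1), tested with limma over all 12002 genes of at least 1 TPM, and a gene counts as higher or lower at a Benjamini-Hochberg adjusted p below 0.05. At 1 h, 17 of the 78 members (21.8%) were higher and 9 (11.5%) lower, beside 15% and 7.57% of all tested genes. At 3 h, 31 members (39.7%) were higher and 10 (12.8%) lower, beside 24.9% and 32.0% of all genes. The median member stood at 0.09 at 3 h and the median of all genes at -0.04.

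At 6 h, 54 members (69.2%) were higher and 4 (5.13%) lower, beside 44.4% and 24.5% of all genes. The median change of the members was 0.30, against 0.12 for all genes. At 24 h, 47 members (60.3%) were higher and 5 (6.41%) lower, beside 56.1% and 15.2%, with medians of 0.20 and 0.23. The share of members that were higher at 24 h was therefore near the background. Without the second DMSO library, 9 members were higher and 9 lower at 1 h, 22 and 16 at 3 h, 50 and 4 at 6 h, and 39 and 5 at 24 h.

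For the higher calls, single libraries bore on the early times more than on 6 h. Of the 17 members higher at 1 h, 8 kept the call in all 6 fits that each left out 1 of the libraries compared. At 3 h it was 21 of 31 that did, at 6 h 49 of 54 and at 24 h 36 of 47. Of the members that were lower, 4 of 9, 9 of 10, 2 of 4 and 3 of 5 kept the call at 1, 3, 6 and 24 h. At 1 h, 11 members were higher without replicate 2 or without replicate 3 of the 1 h group, and 5 were lower without DMSO replicate 1. At 6 h, 2 were lower without DMSO replicate 1 or without replicate 1 of the 6 h group.

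**Figure D1:**
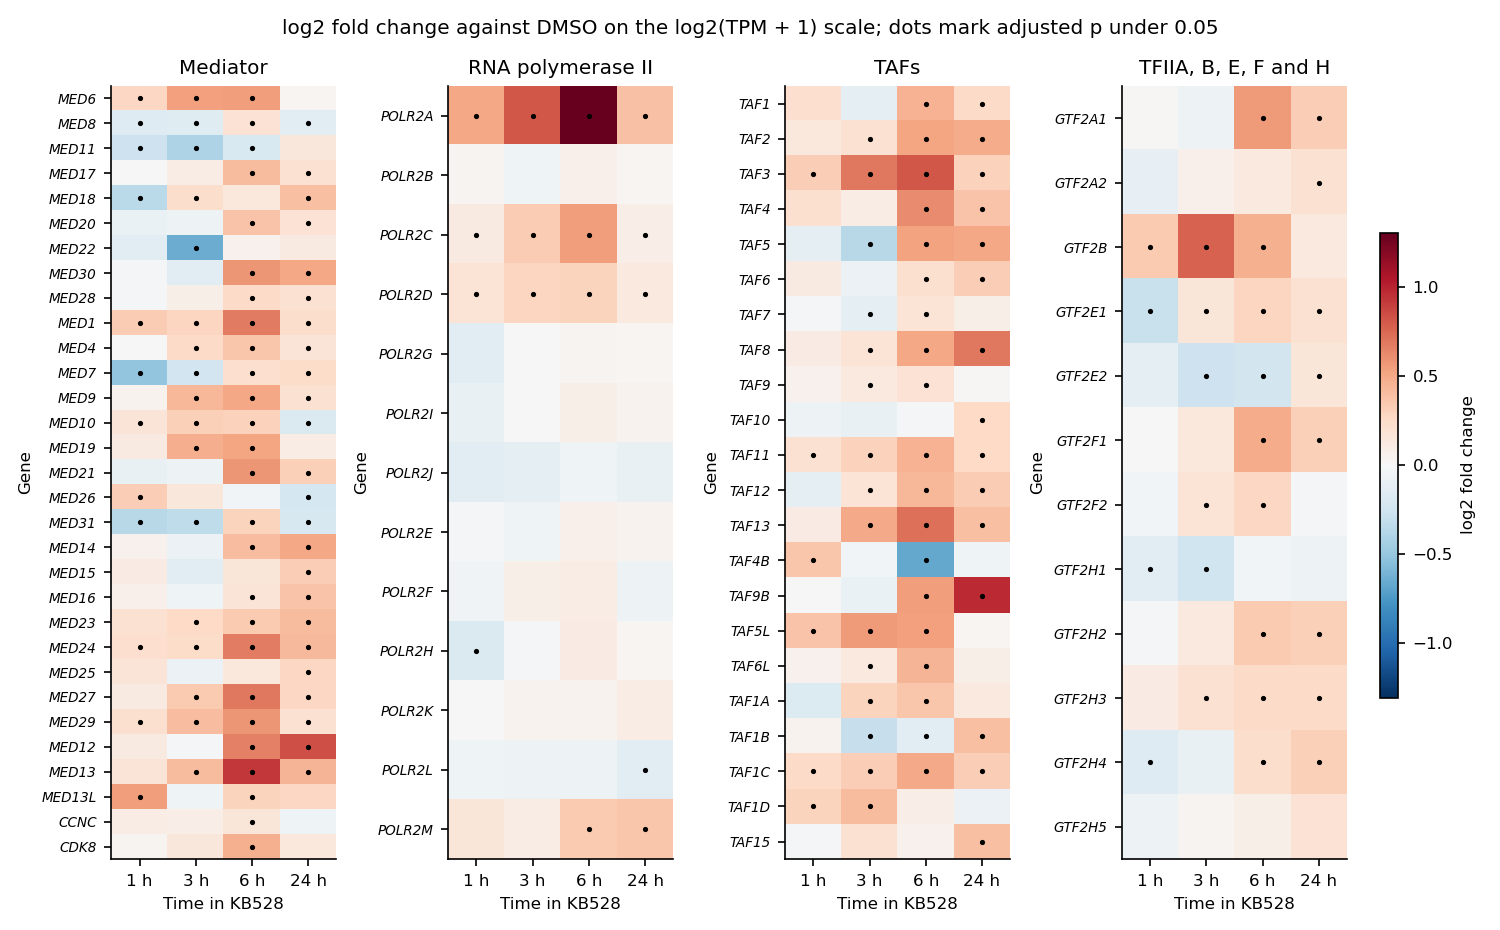
Differences from DMSO for the 78 tested members, as log2 fold change on the log2(TPM + 1) scale (colour, red higher and blue lower), with genes in rows by complex and hours in KB528 in columns. Dots mark adjusted p under 0.05; at 6 h 54 genes are marked higher and 4 lower, and most RNA polymerase II rows other than POLR2A, POLR2C and POLR2D are pale throughout.

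The direction at 24 h depended on what the libraries were scaled to. Median-ratio scaling, which centres each library on genes of at least 5 TPM, shifted every gene by -0.16 (6 h) and -0.20 (24 h) relative to DMSO on the log2 scale. Under it 41 members were higher and 10 lower at 6 h, beside 32.7% and 37.5% of all genes. At 24 h 15 were higher and 22 lower, so that the balance of the members turned, beside 37.1% and 30.0% of all genes. At 1 h 15 were higher and 14 lower, beside 15.5% and 14.9%.

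Removing each library's trend with transcript length gave 20 members higher and 23 lower at 24 h, beside 33.5% and 34.1% of all genes. Scaling to the spike-ins shifted genes by -0.22 at 3 h and by 0.19 at 6 h. It left 2 members higher and 5 lower at 3 h, beside 3.43% and 21.0%, and 43 higher and 1 lower at 6 h, beside 34.3% and 8.26%. The rise of the group at 6 h was thus called under each scaling, while its position at 24 h was not. With both median-ratio scaling and length correction, 40 of the 54 higher calls at 6 h remained, and 14 of the 47 at 24 h.

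**Figure D2:**
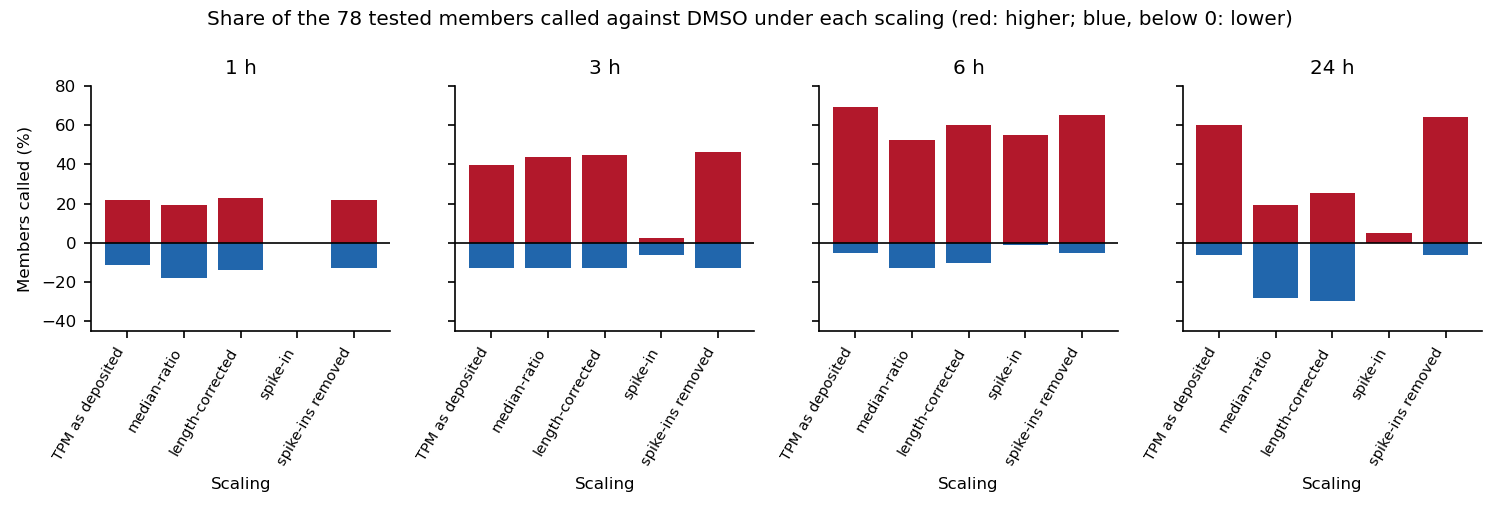
Percentage of the 78 tested members called higher (red, above 0) or lower (blue, below 0) than DMSO at each time, with bars for each way of scaling the libraries. At 6 h higher calls exceed lower calls with each scaling, while at 24 h median-ratio scaling (15 higher, 22 lower) and length correction (20 higher, 23 lower) turn the balance.

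Transcript length moved with these differences. Over the 78 members, the Spearman rho between the change and the transcript length came to 0.46 (1 h), 0.07 (3 h), 0.29 (6 h) and 0.37 (24 h), a description over genes that share the same DMSO libraries. At 6 h the median change was 0.40 for the 39 longer and 0.19 for the 39 shorter transcripts. The DMSO level moved with the changes too, with a Spearman rho of -0.08 (1 h), -0.02 (3 h), -0.40 (6 h) and -0.41 (24 h), so that more abundant members had smaller changes at 6 h and 24 h. The DMSO libraries enter both the level and the change. The part of length or level in the changes of single members was not tested beyond the corrected values given here.

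Among the polymerase genes, POLR2A moved most. It encodes RPB1, the largest subunit, whose C-terminal tail is phosphorylated during the transcription cycle. POLR2A stood at 68.7, 55.7 and 85.8 TPM in the DMSO libraries, 97.5, 102 and 96.2 at 1 h, 124, 98.5 and 149 at 3 h, 161, 169 and 187 at 6 h and 95.5, 91.1 and 85.1 at 24 h. All 3 libraries lay above every DMSO library at each of the times 1, 3 and 6 h, and the 6 h libraries were above all others. At 24 h the range overlapped that of DMSO.

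POLR2A rose by 0.81 (SE 0.14, adjusted p = 1.30e-04) after 3 h and by 1.30 (SE 0.14, adjusted p = 7.50e-07) after 6 h on the log2 scale. The latter corresponds to 2.46 times the DMSO mean in TPM. It was the only member whose log2 difference reached 1 in size at any time. Between 6 h and 24 h it fell by 0.92 on the log2 scale (adjusted p = 2.64e-05). The calls at 1 h, 0.51 (SE 0.14, adjusted p = 0.0154), and at 24 h, 0.39 (SE 0.14, adjusted p = 0.0201), were lost without DMSO replicate 2, at 0.36 and 0.23. The 1 h call was also lost without replicate 2 of the 1 h group (0.48). The 24 h call was also lost without replicate 1 of the 24 h group (0.35), with median-ratio scaling (0.19) and with length correction (0.10). Both calls were lost with spike-in scaling (0.45 and 0.37) and when no filter on TPM was used.

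Most of the other polymerase subunits moved little as deposited. POLR2B encodes RPB2, which forms the active site together with RPB1. POLR2B stood at 72.6, 60.9 and 65.6 TPM in the DMSO libraries, 68, 67.7 and 68.4 at 1 h, 62.1, 65.7 and 63.1 at 3 h, 69.1, 68.6 and 70.6 at 6 h and 69.2, 66.8 and 67 at 24 h. These ranges overlapped at each time, and as deposited POLR2B was not called at any of them. Within a library, the ratio of POLR2A to POLR2B was 1.06 ± 0.218 in DMSO, 1.45 ± 0.0526 after 1 h, 1.95 ± 0.431 after 3 h, 2.48 ± 0.161 after 6 h and 1.34 ± 0.0588 after 24 h (SD, n = 3). The 24 h ratios, from 1.27 to 1.38, overlapped the DMSO range of 0.915 to 1.31. This ratio does not change when a library is scaled by a single factor, but length correction, which differs between genes, can change it. It was chosen after the levels were seen, so no test is given.

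POLR2C encodes RPB3, which nucleates assembly of the enzyme. POLR2C stood at 133, 129 and 134 TPM in the DMSO libraries, 142, 141 and 146 at 1 h, 162, 169.6 and 167 at 3 h, 187, 195 and 199.5 at 6 h and 139.6, 141 and 139 at 24 h. All treated libraries lay above all DMSO libraries, those of 6 h highest, and POLR2C rose by 0.33 (SE 0.04, adjusted p = 1.67e-06) at 3 h and 0.55 (SE 0.04, adjusted p = 4.68e-09) at 6 h. It then fell by 0.47 on the log2 scale from 6 h to 24 h (adjusted p = 2.70e-08). At 24 h its call as higher (0.08) turned to lower with median-ratio scaling (-0.12). POLR2D, which forms the stalk with POLR2G, rose by 0.28 (SE 0.05, adjusted p = 2.35e-04) at 3 h and 0.29 (SE 0.05, adjusted p = 1.09e-04) at 6 h.

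Of the 5 subunits shared with RNA polymerases I and III (POLR2E, POLR2F, POLR2H, POLR2K and POLR2L), 0 were higher at any time as deposited (limma, with 0, 0, 1 and 0 higher at an unadjusted p below 0.05). POLR2H was lower at 1 h (-0.19), a call lost without replicate 1 of the 1 h group (-0.16). POLR2L stood at 517, 544 and 498 TPM in DMSO and 460.4, 491 and 463 TPM at 24 h, and its decrease of -0.14 (SE 0.04, adjusted p = 0.0109) was lost without DMSO replicate 2 (-0.11). POLR2M, a polymerase-associated protein that makes transcription depend on Mediator, rose by 0.34 (SE 0.10, adjusted p = 0.00535) at 6 h. That call was lost with length correction (0.15), and POLR2M was the lowest tested member in DMSO. The 11 subunits from POLR2B to POLR2L summed to 1759 ± 51.3 TPM in DMSO, 1843 ± 49.5 at 6 h and 1732 ± 31.5 at 24 h (SD, n = 3). The scaling mattered at 24 h, where 4 of the 13 polymerase genes were higher and 1 lower as deposited. With median-ratio scaling 1 was higher and 8 lower, beside 37.1% and 30.0% of all genes. With length correction 8 were lower, beside 34.1% of all genes. Of the 5 shared subunits, 4 were lower at 24 h under either.

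**Figure D3:**
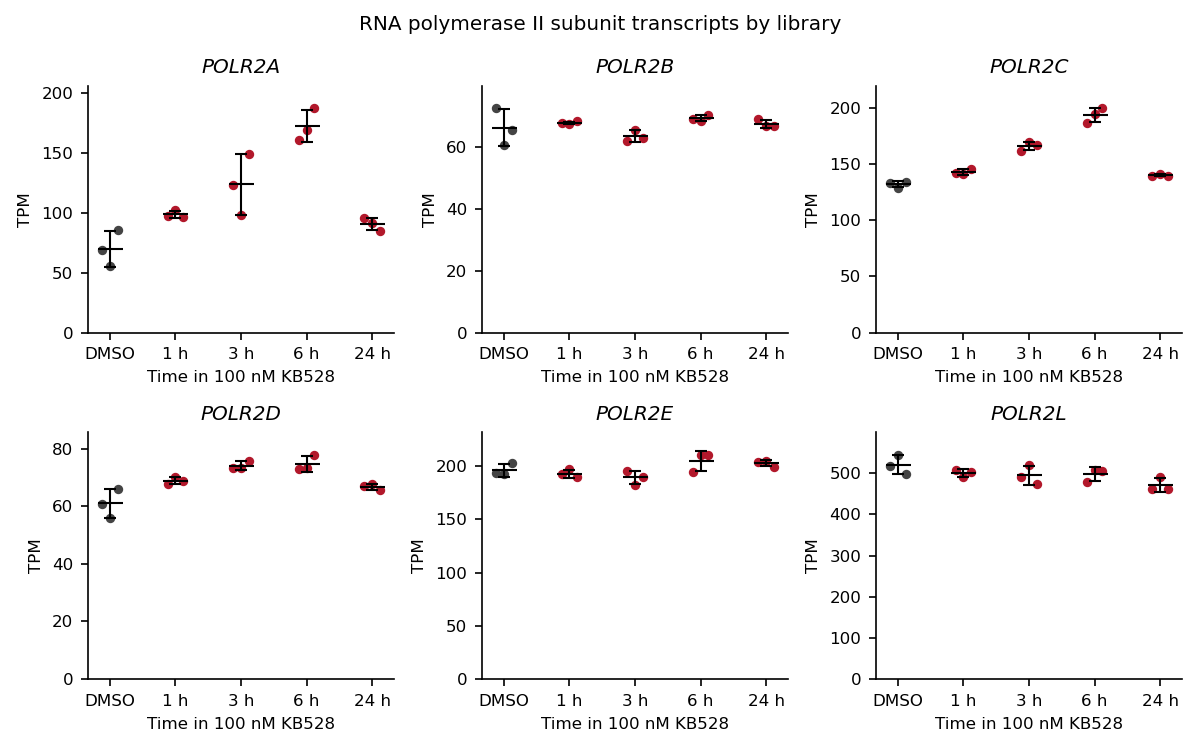
TPM of RNA polymerase II genes by library, with time in 100 nM KB528 on the horizontal axis and a separate linear axis from 0 for each gene. Points are libraries and bars the mean ± SD of 3; the 6 h points of POLR2A lie above all its other points, while those of POLR2B overlap at every time.

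Mediator genes were raised in every module at 6 h. Of 31 tested, 25 were higher and 1 lower, with a median of 0.36, beside 44.4% and 24.5% of all genes. With median-ratio scaling 18 were higher and 2 lower, beside 32.7% and 37.5%. The head had 6 of 9 higher and 1 lower, the middle 8 of 9 higher, the backbone and tail 6 of 8 higher and the kinase module 5 of 5 higher. In the kinase module 3 of 5 were higher with median-ratio scaling, with length correction or without DMSO replicate 2. At 1 h, 7 were higher and 5 lower, and at 3 h 12 and 5. At 24 h 20 were higher and 4 lower as deposited, beside 56.1% and 15.2% of all genes. With median-ratio scaling it was 8 and 6, beside 37.1% and 30.0%.

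In the kinase module, MED12 and MED13 were both higher at 6 h and 24 h. MED12 activates CDK8 together with cyclin C. MED12 stood at 14.7, 12.8 and 17.5 TPM in the DMSO libraries, 16.3, 16.9 and 15.6 at 1 h, 14.9, 11.9 and 17.5 at 3 h, 22.7, 23.6 and 26.1 at 6 h and 28.7, 27.6 and 25.9 at 24 h. Its 6 h and 24 h libraries lay above all DMSO libraries, while the 3 h libraries overlapped them.

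MED12 rose by 0.66 (SE 0.12, adjusted p = 1.18e-04) at 6 h and by 0.84 (SE 0.12, adjusted p = 1.27e-05) at 24 h, and both calls held with median-ratio (0.51 and 0.65), length-corrected (0.48 and 0.55) and spike-in scaling (0.84 and 0.82). From 6 h to 24 h its difference was 0.18 (SE 0.12, adjusted p = 0.179), which did not pass the test. MED13, which docks the module onto core Mediator, was also higher at 3 h. MED13 stood at 10.8, 8.74 and 11.8 TPM in the DMSO libraries, 11.5, 12.3 and 11.6 at 1 h, 13.9, 13.1 and 15.8 at 3 h, 20.9, 19.1 and 21.6 at 6 h and 15.4, 14.5 and 13.5 at 24 h. The 3 h, 6 h and 24 h libraries lay above all DMSO libraries, with 6 h highest.

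MED13 rose by 0.42 (SE 0.09, adjusted p = 0.00115) at 3 h and 0.92 (SE 0.09, adjusted p = 3.96e-07) at 6 h, and stood at 0.44 (SE 0.09, adjusted p = 4.93e-04) at 24 h. It fell by 0.48 on the log2 scale from 6 h to 24 h (adjusted p = 2.67e-04). Its 3 h and 24 h calls were lost with spike-in scaling (0.21 and 0.43). MED13L encodes the paralog that can take the place of MED13 in the module. MED13L stood at 13, 10.0 and 15.7 TPM in the DMSO libraries, 18.4, 18.9 and 19.6 at 1 h, 11.6, 10.6 and 14.6 at 3 h, 15.2, 15.3 and 17 at 6 h and 16.7, 15.3 and 14.8 at 24 h. Only the 1 h libraries were all above DMSO, where the highest DMSO value came from replicate 3.

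MED13L rose by 0.54 (SE 0.12, adjusted p = 0.00555) at 1 h and then fell by 0.60 on the log2 scale from 1 h to 3 h (adjusted p = 9.44e-04). Its 6 h call of 0.29 was lost in 5 of the 6 fits with a library left out (0.14 without DMSO replicate 2), and with median-ratio scaling (0.15) and length correction (0.12). The ratio of MED13 to MED13L within a library was 0.817 ± 0.0612 in DMSO, 0.623 ± 0.0310 after 1 h, 1.17 ± 0.0794 after 3 h, 1.30 ± 0.0701 after 6 h and 0.928 ± 0.0182 after 24 h (SD, n = 3). That ratio, a description with no test, was below the DMSO range at 1 h and above it at 3 h, 6 h and 24 h.

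CDK8 is the kinase itself. CDK8 stood at 13.6, 11.7 and 14 TPM in the DMSO libraries, 12.9, 13.7 and 13.8 at 1 h, 14.2, 14.5 and 14.9 at 3 h, 17.7, 18.6 and 19.1 at 6 h and 14.7, 15 and 13.9 at 24 h. It rose by 0.47 (SE 0.06, adjusted p = 8.55e-06) at 6 h, and as deposited the values of 0.04, 0.14 and 0.14 at 1, 3 and 24 h did not pass. Its 3 h and 6 h libraries lay above all DMSO libraries. The 3 h difference was called with median-ratio scaling (0.15) and length correction (0.15) among other settings, and the 24 h difference without spike-ins in the total (0.15). Its partner cyclin C, encoded by CCNC, stood at 53.9, 47 and 47.4 TPM in DMSO and 54.7, 55.4 and 55.2 TPM at 6 h. The CCNC increase of 0.16 (SE 0.05, adjusted p = 0.0175) was lost without DMSO replicate 2 (0.12) or replicate 3 (0.13) and with median-ratio scaling (0.002).

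**Figure D4:**
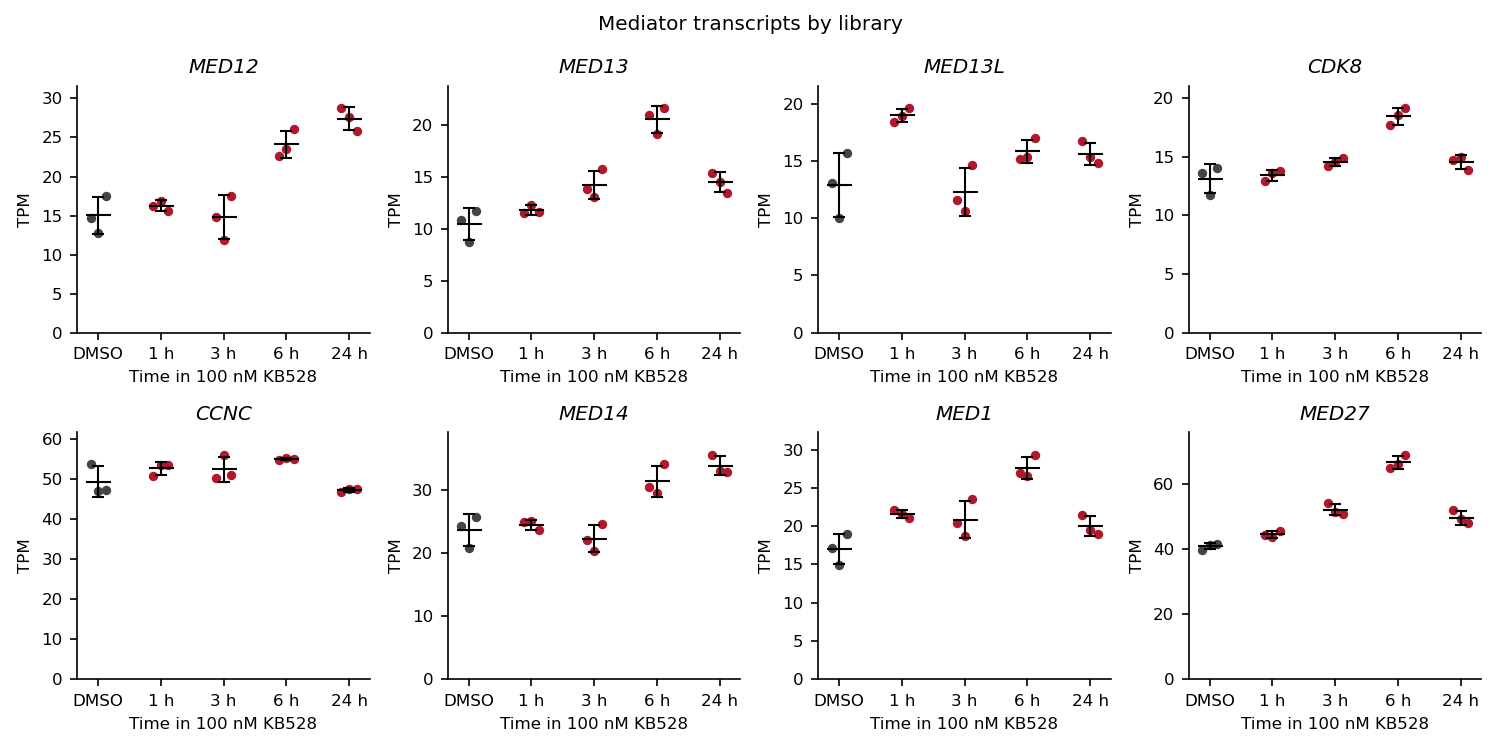
TPM of 8 Mediator genes by library, with time in 100 nM KB528 on the horizontal axis and a linear axis from 0 for each gene. Points are libraries and bars the mean ± SD of 3; MED13, CDK8, MED1 and MED27 peak at 6 h, MED13L at 1 h, and MED12 and MED14 stay above DMSO at 24 h.

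In the middle and tail, MED1, the subunit through which nuclear receptors contact Mediator, was highest at 6 h. MED1 stood at 17.1, 14.9 and 19 TPM in the DMSO libraries, 22.1, 21.6 and 21.1 at 1 h, 20.4, 18.7 and 23.5 at 3 h, 26.9, 26.6 and 29.3 at 6 h and 21.5, 19.5 and 19 at 24 h. Its 6 h libraries were above all others, and it rose by 0.67 (SE 0.09, adjusted p = 5.04e-06). At 1 h and 3 h the calls (0.33 and 0.28) were lost without DMSO replicate 2 (0.25 and 0.19), and at 24 h the value of 0.23 turned to -0.05 with length correction.

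MED14 is the backbone that links head, middle and tail. MED14 stood at 24.3, 20.8 and 25.7 TPM in the DMSO libraries, 24.9, 25 and 23.6 at 1 h, 22, 20.3 and 24.6 at 3 h, 30.4, 29.5 and 34.1 at 6 h and 35.6, 33.1 and 32.9 at 24 h. The 6 h and 24 h libraries exceeded all DMSO libraries, and MED14 rose by 0.40 (SE 0.08, adjusted p = 4.22e-04) and 0.51 (SE 0.08, adjusted p = 4.88e-05) at those times. All 8 backbone and tail genes were higher at 24 h as deposited, from 0.20 for MED29 to 0.51 for MED14, beside 56.1% of all genes and an all-gene median of 0.23. Of these 8, MED14, MED16, MED23 and MED24 kept the 24 h call with both median-ratio scaling and length correction. With spike-in scaling 0 of the 8 were called at 24 h, MED14 standing at 0.49.

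MED23, a tail subunit that receives signals from growth factor pathways, rose by 0.34 (SE 0.09, adjusted p = 0.0026) at 6 h and 0.42 (SE 0.09, adjusted p = 5.51e-04) at 24 h. Its 3 h call of 0.26 was lost without DMSO replicate 2 (0.16) or replicate 3 of the 3 h group (0.18). MED15, another tail subunit, was higher at 24 h only (0.32 (SE 0.09, adjusted p = 0.00611)), and that call was lost with median-ratio scaling and with length correction. MED27 had the smallest spread of the rising tail genes. MED27 stood at 39.7, 41.2 and 41.5 TPM in the DMSO libraries, 44.3, 43.5 and 45.6 at 1 h, 54, 51.3 and 50.8 at 3 h, 64.8, 65.9 and 68.8 at 6 h and 52, 49 and 47.8 at 24 h. All 4 treated groups lay above all DMSO libraries, and MED27 rose by 0.69 (SE 0.04, adjusted p = 3.90e-09) at 6 h.

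Several head and middle genes were lower at the early times, and of the 5 described next MED7, MED31 and MED18 were higher at a later time. MED7 forms the hinge of the middle module with MED21. MED7 stood at 10.5, 9.54 and 9.57 TPM in the DMSO libraries, 6.76, 6.88 and 6.14 at 1 h, 7.36, 8.40 and 8.72 at 3 h, 11.6, 11.1 and 12.4 at 6 h and 11.4, 11.4 and 12.7 at 24 h. The 1 h and 3 h libraries were below all DMSO libraries, and the 6 h and 24 h libraries above them.

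MED7 fell by 0.52 on the log2 scale at 1 h (SE 0.07, adjusted p = 9.95e-05) and stood at -0.25, 0.22 and 0.24 at the 3 later times. The 6 h call was lost without replicate 3 of the 6 h group (0.19), and with median-ratio scaling the 6 h and 24 h values were 0.08 and 0.05 and did not pass. MED31, its neighbour in the middle, stood at 9.96, 9.19 and 7.84 TPM in DMSO, 7.18, 6.63 and 6.47 at 1 h and 10.8, 10.5 and 12.4 at 6 h. It was lower at 1 h (-0.36 (SE 0.09, adjusted p = 0.00884)) and 3 h (-0.34), higher at 6 h (0.29) and lower at 24 h (-0.21). The 24 h call was lost without any 1 of 4 libraries, among them DMSO replicate 1 (-0.14).

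MED18 belongs to the movable jaw of the head. MED18 stood at 24.5, 22.1 and 23.8 TPM in the DMSO libraries, 17.3, 18.3 and 18.9 at 1 h, 25.3, 30.2 and 27.4 at 3 h, 24.7, 25.7 and 27 at 6 h and 30.6, 30.8 and 31.9 at 24 h. It was below DMSO at 1 h in all 3 libraries and above it at 3 h, 6 h and 24 h in all 3. MED18 fell by 0.35 on the log2 scale at 1 h (adjusted p = 9.67e-04) and rose by 0.40 (SE 0.06, adjusted p = 4.79e-05) at 24 h.

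MED22 and MED11 are head subunits that bind each other. MED22 stood at 47.6, 42.6 and 50.7 TPM in DMSO, 30.1, 27.2 and 31.7 at 3 h and 47.1, 48 and 51.3 at 6 h. It fell by 0.64 on the log2 scale at 3 h (SE 0.07, adjusted p = 1.77e-06), with all 3 libraries below DMSO. At 6 h the groups overlapped and the difference was 0.06. MED11 was lower at 1 h (-0.27), 3 h (-0.41 (SE 0.07, adjusted p = 1.26e-04)) and 6 h (-0.20), and the 6 h call was lost without DMSO replicate 1 or replicate 1 of the 6 h group (-0.16 in both).

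At 24 h the lower Mediator genes were MED26, MED10, MED8 and MED31. MED26, which brings elongation factors to Mediator, was higher at 1 h (0.32) and lower at 24 h (-0.23 (SE 0.07, adjusted p = 0.00858)). MED10 was higher at 3 h (0.31) and 6 h (0.30) and lower at 24 h (-0.19 (SE 0.05, adjusted p = 0.00142)). MED8 was lower at 1, 3 and 24 h and higher at 6 h, with values between -0.17 and 0.19. The 5 lower calls at 24 h, which include POLR2L, were all kept with median-ratio scaling and length correction, and 0 of them with spike-in scaling (limma, 0 also at an unadjusted p below 0.05).

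TAF genes were mostly higher at 6 h. Of 22 tested, 17 were higher and 2 lower, with a median of 0.45, beside 44.4% and 24.5% of all genes. With median-ratio scaling 14 were higher and 3 lower, beside 32.7% and 37.5%. Of the 13 subunits of TFIID, 12 were higher and 0 lower (limma, also 0 lower at an unadjusted p below 0.05), TAF10 at -0.02 being the exception. At 24 h 11 of the 13 were higher as deposited, beside 56.1% of all genes. With median-ratio scaling 3 were higher and 2 lower, beside 37.1% and 30.0%.

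TAF1 is the largest TFIID subunit and the scaffold of its promoter-binding lobe. TAF1 stood at 13, 11 and 14.5 TPM in the DMSO libraries, 15.2, 14.9 and 15.1 at 1 h, 11.5, 10.2 and 13.4 at 3 h, 17.7, 17.4 and 18.3 at 6 h and 16.1, 15.3 and 14.7 at 24 h. The 6 h libraries were above all DMSO libraries and the 3 h libraries overlapped them. TAF1 rose by 0.45 (SE 0.09, adjusted p = 3.79e-04) at 6 h after a value of -0.12 at 3 h that did not pass, and its 24 h call of 0.25 was lost without DMSO replicate 2 (0.15) and turned to -0.04 with length correction.

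TAF7 binds TAF1 and leaves TFIID once the complex is assembled. It was lower at 3 h (-0.13 (SE 0.04, adjusted p = 0.0238)) and higher at 6 h (0.18 (SE 0.04, adjusted p = 0.00221)). The 3 h call was lost without any 1 of 3 libraries, among them DMSO replicate 1 (-0.10). The 6 h call was lost with median-ratio scaling and with length correction.

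TAF3 carries a finger that reads trimethylated lysine 4 of histone H3. TAF3 stood at 11.8, 11 and 14.3 TPM in the DMSO libraries, 15.9, 15.4 and 15.6 at 1 h, 20.8, 19.4 and 21.1 at 3 h, 22.4, 21.6 and 23 at 6 h and 14.6, 15.9 and 15.4 at 24 h. Its libraries were above DMSO at 1, 3, 6 and 24 h without overlap. TAF3 rose by 0.69 (SE 0.07, adjusted p = 1.30e-06) at 3 h and 0.81 (SE 0.07, adjusted p = 1.49e-07) at 6 h, and fell by 0.52 on the log2 scale from 6 h to 24 h (adjusted p = 1.60e-05).

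TAF13 pairs with TAF11 through a histone fold. TAF13 stood at 14.3, 10.7 and 12.1 TPM in the DMSO libraries, 12.5, 12.7 and 14.9 at 1 h, 16.2, 20.1 and 17 at 3 h, 20.6, 21.2 and 21 at 6 h and 15.9, 17.5 and 16 at 24 h. The 3 h, 6 h and 24 h libraries lay above all DMSO libraries, and TAF13 rose by 0.72 (SE 0.09, adjusted p = 7.19e-06) at 6 h. TAF11 rose by 0.45 at that time. TAF5, a core subunit, was lower at 3 h (-0.36 (SE 0.08, adjusted p = 0.0011)) and higher at 6 h (0.53 (SE 0.08, adjusted p = 2.17e-05)) and 24 h (0.50).

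TAF4B can replace TAF4 in TFIID and was first described in B cells and the germ line. TAF4B stood at 28.9, 24.5 and 29.9 TPM in the DMSO libraries, 36.1, 35.7 and 36.1 at 1 h, 26.8, 25.6 and 28.4 at 3 h, 17, 16.4 and 17.7 at 6 h and 27.2, 26.6 and 26 at 24 h. The 1 h libraries were above all DMSO libraries, the 6 h libraries were below all other libraries, and the 24 h libraries overlapped DMSO.

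TAF4B rose by 0.37 (SE 0.06, adjusted p = 6.96e-04) at 1 h, fell to -0.67 (SE 0.06, adjusted p = 2.38e-07) at 6 h, and rose again by 0.62 (SE 0.06, adjusted p = 5.57e-07) from 6 h to 24 h. The call at 6 h held with median-ratio (-0.82), length-corrected (-0.86) and spike-in scaling (-0.49). TAF4 itself stood at 12.4, 11.3 and 15.7 TPM in DMSO and 19.5, 19.5 and 22.7 TPM at 6 h, a rise of 0.62 (SE 0.11, adjusted p = 1.01e-04). The ratio of TAF4B to TAF4 within a library went from 2.14 ± 0.220 in DMSO to 0.830 ± 0.0467 at 6 h and 1.56 ± 0.0540 at 24 h (SD, n = 3), given without a test.

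TAF9B is the paralog of TAF9, shared by TFIID and the SAGA coactivator. TAF9B stood at 13.5, 11.5 and 12.4 TPM in the DMSO libraries, 12.3, 12.5 and 12.7 at 1 h, 11.8, 12 and 11.2 at 3 h, 18.9, 17.8 and 19.4 at 6 h and 25.2, 26 and 25.2 at 24 h. The 24 h libraries were above all others and the 6 h libraries above DMSO. TAF9B rose by 0.55 (SE 0.06, adjusted p = 6.30e-07) at 6 h and 0.97 (SE 0.06, adjusted p = 2.31e-09) at 24 h, and the 24 h call held with median-ratio (0.79), length-corrected (0.76) and spike-in scaling (0.96).

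Relative to TAF9, which was far more abundant, TAF9B went from 0.123 ± 0.00756 in DMSO to 0.161 ± 0.00666 at 6 h and 0.249 ± 0.0127 at 24 h (SD, n = 3). TAF8, which carries TAF10 into the nucleus, also rose most at 24 h, by 0.68 (SE 0.07, adjusted p = 3.69e-07) after 0.50 at 6 h. TAF5L, the SAGA counterpart of TAF5, rose by 0.37 (SE 0.06, adjusted p = 5.88e-04) at 1 h and 0.55 (SE 0.06, adjusted p = 2.78e-06) at 3 h, and at 24 h stood at 0.02. The TAF1A to TAF1D proteins serve RNA polymerase I in the SL1 factor. TAF1D rose by 0.41 at 3 h, while TAF1B was lower at 3 h (-0.30) and higher at 24 h (0.39).

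**Figure D5:**
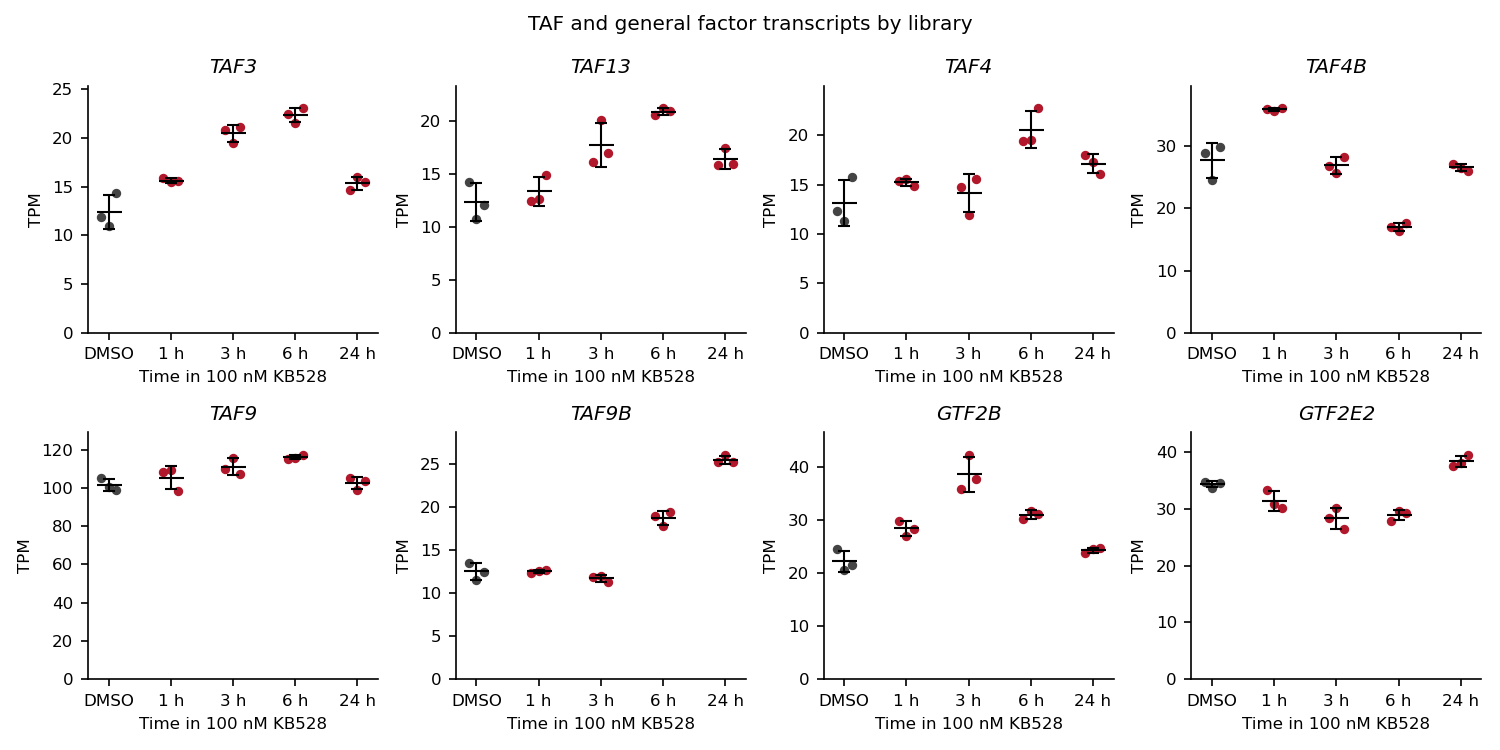
TPM of TAF genes, GTF2B and GTF2E2 by library, with time in 100 nM KB528 on the horizontal axis and a linear axis from 0 for each gene. Points are libraries and bars the mean ± SD of 3; TAF4B rises at 1 h and is lowest at 6 h, TAF9B is highest at 24 h, and GTF2B is highest at 3 h.

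Of the 12 general factor genes, 8 were higher and 1 lower at 6 h, with a median of 0.26, beside 44.4% and 24.5% of all genes. With median-ratio scaling 5 were higher and 2 lower, beside 32.7% and 37.5%. GTF2B encodes TFIIB, the single-chain factor that bridges TFIID and the polymerase. GTF2B stood at 24.5, 20.6 and 21.5 TPM in the DMSO libraries, 29.9, 27.1 and 28.3 at 1 h, 36, 42.3 and 37.7 at 3 h, 30.1, 31.8 and 31.2 at 6 h and 23.7, 24.6 and 24.6 at 24 h. The 1, 3 and 6 h libraries were above all DMSO libraries, with 3 h highest, and the 24 h libraries overlapped DMSO.

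GTF2B rose by 0.35 (SE 0.07, adjusted p = 0.00174) at 1 h, 0.77 (SE 0.07, adjusted p = 1.53e-07) at 3 h and 0.47 (SE 0.07, adjusted p = 1.65e-05) at 6 h. It fell by 0.31 on the log2 scale from 3 h to 6 h and by 0.34 from 6 h to 24 h (adjusted p = 0.00128 and 3.56e-04). GTF2B was 1 of 4 members whose group mean was highest at 3 h, and with POLR2A it made up the 2 members that stayed higher at 3 h with spike-in scaling (0.56).

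The subunits of TFIIE did not move together. GTF2E1 was lower at 1 h (-0.29 (SE 0.06, adjusted p = 0.00436)) and higher at 6 h (0.28), while GTF2E2 was lower at 3 h (-0.27) and 6 h (-0.24 (SE 0.05, adjusted p = 8.78e-04)). GTF2A1 of TFIIA rose by 0.56 (SE 0.09, adjusted p = 3.40e-05) at 6 h, and GTF2F1 of TFIIF by 0.48 (SE 0.10, adjusted p = 4.04e-04). In TFIIH, GTF2H2, GTF2H3 and GTF2H4 were higher at 6 h, by 0.23 to 0.34. With median-ratio scaling GTF2H2 (0.20) kept that call, while GTF2H3 (0.10) and GTF2H4 (0.09) did not, and GTF2H1 was lower (-0.19). GTF2H1, the p62 subunit, was lower at 3 h (-0.26 (SE 0.05, adjusted p = 3.44e-04)), and its 1 h call of -0.14 was lost without any 1 of 5 libraries, DMSO replicates 1 and 2 among them.

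Steps between treated times were also tested. Between 1 h and 3 h, 21 members were higher and 10 lower, beside 15.2% and 31.8% of all tested genes. Between 3 h and 6 h, 43 were higher and 4 lower, beside 42.3% and 13.7%. Between 6 h and 24 h, 9 were higher and 33 lower, beside 41.0% and 26.0%. The group mean was highest at 6 h for 45 of the 78 members (57.7%), against 26.9% of all tested genes, and highest at 24 h for 23 members (29.5%), against 43.2%.

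Mediator gave 18 of the 33 decreases after 6 h, and the middle module 8 of these, while TAFs gave 8, the polymerase 4 and the general factors 3. Of the 54 members higher at 6 h, 30 were lower at 24 h than at 6 h, and 13 of these 30 were not higher than DMSO at 24 h. CDK8, CCNC, GTF2B, MED6 and TAF5L were among the 13. Choosing members by a high 6 h value favours a later fall, and the matching share of all genes higher at 6 h is not given. The step also depended on scaling: 42 members changed from 6 h to 24 h as deposited and 19 with spike-in scaling. TAF1B, TAF4B, GTF2E2, TAF9B, MED11, TAF10, MED18, MED16 and TAF8 were the 9 that rose from 6 h to 24 h.

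The 9 members called higher at all 4 times as deposited were MED1, MED24, MED29, POLR2A, POLR2C, POLR2D, TAF11, TAF1C and TAF3. Of their 1 h calls, that of TAF3 alone held in all 6 fits with a library left out. At 24 h the calls of MED24, TAF11, TAF1C and TAF3 held in all 6 such fits. Only the 24 h call of MED24 was kept with both median-ratio scaling and length correction. The share of all genes called higher at all 4 times is not given. The 8 members called at no time as deposited were GTF2H5 and the 7 polymerase genes POLR2B, POLR2E, POLR2F, POLR2G, POLR2I, POLR2J and POLR2K. For the polymerase genes as a group, the 24 h calls depended on the scaling, as given above. Summed over all 81 members, the level was 3987 ± 74.1 TPM in DMSO, 4628 ± 141 at 6 h and 4344 ± 88.8 at 24 h (SD, n = 3).

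Genes of the same machinery outside the name rule were counted from lists chosen by function. Of 11 partners of the initiation complex, 6 were higher and 0 lower at 6 h (limma, 0 lower at an unadjusted p below 0.05), beside 44.4% and 24.5% of all genes. With median-ratio scaling it was 4 and 3, beside 32.7% and 37.5%. ERCC3, the helicase of TFIIH that opens the promoter, was higher at 6 h (0.65), and CDK7, the TFIIH kinase, at 3 h (0.36) and 6 h (0.50). TBP, the DNA-binding core of TFIID, was higher at 3 h (0.32) and 6 h (0.29). CDK19, the paralog of CDK8, was lower at 3 h (-0.40) and higher at 24 h (0.60), and kept both calls with each of the 3 other scalings.

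Of 15 genes for pausing and early elongation, 8 were higher and 1 lower at 3 h and 12 and 1 at 6 h, with medians of 0.15 and 0.33. Of all genes 24.9% were higher and 32.0% lower at 3 h, and 44.4% and 24.5% at 6 h. With median-ratio scaling the 6 h counts were 8 and 2, beside 32.7% and 37.5%. Among them, PAF1 (0.81), CTR9 (0.83) and RTF1 (0.66) of the PAF1 complex and SUPT6H (0.75), a histone chaperone that travels with the polymerase, were higher at 6 h. SUPT16H of the FACT chaperone was lower at 3, 6 and 24 h, at -0.17, -0.21 and -0.15. Of 8 genes for polymerase assembly and tail phosphatases, 5 were higher and 0 lower at 6 h (1 lower at an unadjusted p below 0.05), beside 44.4% and 24.5% of all genes, and 5 and 1 with median-ratio scaling, beside 32.7% and 37.5%.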

How the data were processed

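Messenger RNA of RPMI-8226 cells was sequenced from 15 strand-specific libraries, per the labels. STAR, featureCounts, FastQC, MultiQC and the build hg19 are named per the submitters' processing notes, with no settings, and the strand setting of the counting is not stated there. Values are TPM, deposited by the authors as a single table of 26456 rows (92 of them ERCC spike-ins) whose columns each sum to 1000000. Its DMSO columns are named as untreated at 0 h and were matched to the DMSO samples through their time and number, and 0 columns stayed without a sample. Libraries of a group correlated across genes at r between 0.995 and 0.998, and 0 pairs were identical.

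Gene rows with a mean of at least 1 TPM (12002) entered limma 3.58.1 (R 4.3.3) on the log2(TPM + 1) scale, by lmFit and eBayes with a variance trend, in 1 fit of 5 groups of 3, with Benjamini-Hochberg adjustment over all tested genes and a threshold of 0.05. Differences on this scale understate changes of low genes. The fit was tested on simulated data. The members and lists were chosen with earlier results of these data known. Full statistics were planned for 13 anchor genes and for the 4 largest called increases and decreases per time among members of at least 5 TPM whose libraries did not overlap DMSO, and other members were named by role after their values were seen. The alternatives were the pseudocount, the filter, median-ratio, spike-in and length scaling, spike-ins out of the total, the variance trend, a replicate block, only the compared groups, and leaving out each library. Transcript lengths came from GENCODE release 29, found for 97.5% of tested genes and all 78 tested members. Promoters came from RefSeq on GRCh38.p14, a build other than that of the table. Summaries used pandas 2.3.3, numpy 2.4.6 and scipy 1.17.1 under Python 3.11.15, and plots matplotlib 3.10.9.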

Additional observations from a re-analysis of the deposited data

Results flagged for a closer look

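For 13 members, the effect against DMSO was called in opposite directions at a pair of times, and the difference between those times itself passed limma's test. The share of all tested genes that switch by the same rule is not given, so the count cannot be read as particular to the members. The differences below are log2 values, the later time minus the earlier one, and the pairs of times were picked from the data.

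From 1 h to 6 h, TAF4B differed by -1.04, having been higher at 1 h and lower at 6 h. Over the same interval MED31 differed by 0.66, GTF2E1 by 0.57 and MED8 by 0.36, each lower at 1 h and higher at 6 h. From 1 h to 24 h, MED7 differed by 0.76, MED18 by 0.74 and GTF2H4 by 0.49, while MED26 differed by -0.55.

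From 3 h to 6 h, TAF5 differed by 0.89 and TAF7 by 0.31. From 3 h to 24 h, TAF1B differed by 0.69 and GTF2E2 by 0.43, while MED10 differed by -0.50. With median-ratio scaling, 8 of the 13 kept both calls: GTF2E1, GTF2H4, MED10, MED18, MED26, TAF1B, TAF4B and TAF5. Spike-in scaling called 0 members higher and 0 lower at 1 h, so every switch that used 1 h lost a call. At 24 h it called 0 members lower, so the MED10 call was lost, as were the 24 h calls of TAF1B and GTF2E2. The 3 h call of TAF7 was lost under it as well. In 9 of the 13 both calls held with each compared library left out in turn. The exceptions were GTF2H4, whose 1 h call was lost in 5 of 6 such fits, MED8 (1 h) and TAF7 (3 h), with 3 of 6 each, and GTF2E2 (24 h), with 1 of 6. The cause of these switches was not tested.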

How the results depend on the processing

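Of the 11 counts of changed members, each stayed within 1.5 times its value with a pseudocount of 0.1 TPM, a filter of 5 TPM, no filter, no variance trend, the spike-ins taken out of the total, and only the compared groups fitted. Median-ratio scaling gave 14 lower members at 1 h and 10 at 6 h, and at 24 h 15 higher and 22 lower. Length correction gave 8 lower at 6 h, at 24 h 20 higher and 23 lower, and 49 changed from 1 h to 3 h. Spike-in scaling gave 0 higher and 0 lower members at 1 h by limma (2 and 3 at an unadjusted p under 0.05). Its counts were 2 and 5 at 3 h, 1 lower at 6 h, and 4 and 0 at 24 h (0 lower at an unadjusted p under 0.05). It gave 3 changed from 1 h to 3 h and 19 from 6 h to 24 h. Leaving out 1 library at a time gave 9 to 22 higher and 5 to 11 lower at 1 h, 22 to 29 and 9 to 16 at 3 h, 50 to 55 and 2 to 4 at 6 h, and 39 to 49 and 4 to 5 at 24 h. Changed members then numbered 22 to 29 from 1 h to 3 h, 35 to 46 from 3 h to 6 h and 39 to 40 from 6 h to 24 h. With length correction the 24 h values of MED1 (-0.055) and TAF1 (-0.035) turned in sign, as did that of TAF7 with length correction (-0.11) and median-ratio scaling (-0.12). The cause was not tested. Residual correlations exceeded 0.1 in 7 of 30 same-numbered pairs and 8 of 60 others. Between DMSO and 6 h all 3 same-numbered pairs did (0.136, 0.152 and 0.148), as in 0 of the other 9 pairs of groups; DMSO and 3 h gave -0.157, 0.338 and 0.430. With the replicate number as a block, 17 members were higher and 9 lower at 1 h, 30 and 10 at 3 h, 55 and 3 at 6 h, and 47 and 5 at 24 h, and 0 of the 76 named results changed their call. A block over DMSO and 6 h alone, chosen after seeing the data, gave 55 and 3 and changed 0 of 18 calls. Since TPM carry no read counts, the depth behind low members such as POLR2M is not known, and small differences there could not be set against counting error.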

Other observations

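Subunits of RNA polymerases I and III were counted from a list of 19 genes. Of the 19, 5 were higher and 1 lower at 1 h, 9 and 3 at 3 h, 11 and 4 at 6 h, and 3 and 4 at 24 h. The shares of all tested genes were 15% and 7.57%, 24.9% and 32.0%, 44.4% and 24.5%, and 56.1% and 15.2%. With median-ratio scaling 7 were higher and 6 lower at 6 h, beside 32.7% and 37.5% of all genes, and 1 and 12 at 24 h, beside 37.1% and 30.0%. POLR1C, shared by both polymerases, was higher at 1 h (0.62) and 3 h (0.95) and lower at 24 h (-0.29), as log2 differences from DMSO. POLR3F was higher at all 4 times, at 0.39, 0.74, 0.54 and 0.27. POLR3D went the other way, at -0.31, -0.56, -0.37 and -0.29, each called by limma at an adjusted p below 0.05. With spike-in scaling the 3 h calls of POLR1C (0.73), POLR3F (0.53) and POLR3D (-0.78) were kept. At 1 h that scaling called 0 of the 19 higher and 0 lower, so the 1 h calls of these 3 genes were lost. The 6 h call of POLR3D and the 24 h call of POLR3F were lost too. Whether these genes and the Mediator genes differ in their time course was not tested.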
